A study of Mus musculus with 9 samples.

Results

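Muscle of old mice treated with ginkgolide B (GB) was set against muscle of young mice given vehicle, to ask which genes of treated old muscle stand apart from young muscle. The comparison used every library that the sample titles place in these groups, 3 GB libraries and 3 young vehicle libraries, which is 6 of the 9 libraries in the series. All changes are GB minus young. The count table held 56791 genes, of which 17534 had enough reads to be tested.

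All libraries were made from gastrocnemius muscle, and the series title says the mice were female. The young group, titled 3M, and the aged vehicle group, titled 23M, received saline by daily oral gavage for 2 months. The GB mice are labelled aged, carry no age in months in their titles, and received GB at 12 mg/kg body weight on the same schedule. No genotype or strain was given. GB and young libraries therefore differ in age and in treatment at once, and the effects of the 2 cannot be told apart in this comparison. The 3 aged vehicle libraries entered the fit and their levels are given beside some genes. The labels name no batch, nor do they tie each library to its own animal. P-values here therefore reflect library-to-library spread, part of which may be technical.

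Ginkgolide B, a terpenoid from ginkgo leaves, blocks the receptor for platelet activating factor. The gastrocnemius is a mostly fast muscle of the calf. Its fibres are large cells that run on glycolysis and on mitochondrial respiration, and each muscle also holds vessels, nerve endings, connective tissue, fat and immune cells. With age, muscle loses mass, and fibres that lose their nerve contact switch on a known set of genes. In bulk tissue, fewer cells of a type and less RNA per cell cannot be told apart.

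Total counts were 51543383 to 61680520 in the young libraries and 39478427 to 44294097 in the GB libraries. Between 22616 and 24185 genes had at least 1 count in a young library, against 18678 to 19362 in a GB library. Mitochondrially encoded genes took 8.599% to 10.23% of counts in young libraries and 24.33% to 26.08% in GB libraries. The 50 most abundant genes took 41.23% to 43.18% and 53.46% to 56.57%. The aged vehicle libraries, with total counts of 52068522 to 54095457, 22868 to 23045 genes with a count, 13.86% to 15.31% mitochondrial counts and 41.6% to 42.33% in the top 50 genes, lay outside the GB range on each measure. These measures separate the GB libraries from both vehicle groups completely, and their part in the results below was not tested. Any difference in how the GB libraries were made cannot be told apart from treatment. The young libraries also differ from each other. Keratin genes of skin were high in young replicates 2 and 3, with 998 and 892 counts of Krt5, and Krt5 was at 0 counts in young replicate 1 and in every GB library. Young replicate 1 stood apart for clock, stress and antibody genes, as given with those genes.

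In edgeR's quasi-likelihood test, 9406 of the 17534 genes tested passed an adjusted p under 0.05, which is 53.6% of them. Of these, 4323 were higher in GB muscle (24.7% of genes tested) and 5083 were lower (29.0%). A stricter test asked for a change of more than 2-fold, and 2795 genes passed it (15.9%), with 1274 higher (7.27%) and 1521 lower (8.67%). For 10635 genes the 3 GB values and the 3 young values did not overlap (60.7%). Many genes named below were taken for a small p or, for the largest changes, for not overlapping. Their separation is therefore given as a description only. The median log2 fold change over all genes tested was -0.0851. With plain library totals in place of TMM scaling factors it was -0.6437, and the split became 2117 genes higher and 8530 lower.

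Short genes were higher and long genes lower in GB muscle. In the shortest class, 532 genes no longer than 500 bases, the median log2 fold change was 1.1159. In the longest, 2606 genes over 8000 bases, it was -0.6087, where 7.98% of genes were called higher and 55.3% lower. Spearman's rho between gene length and log2 fold change was -0.3225 across genes, which are not independent replicates. A fit that removes this trend within each library (a length offset) called 4267 genes higher and 4295 lower. Of the 9406 calls, 7015 were also called in the same direction with the offset and 79 in the opposite direction. Counts with the offset and with library totals, where given below, follow the main counts of a gene group. Group counts stand beside shares of 24.7% higher and 29.0% lower over all genes tested, and no group was tested against these.

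**Figure D1:**
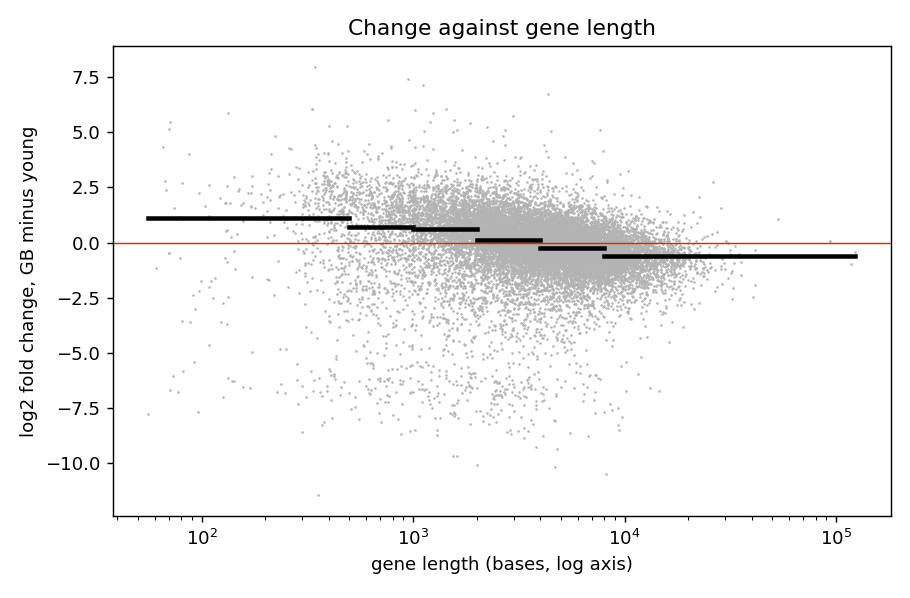
Log2 fold change (GB minus young) against gene length on a log axis for the 17534 genes tested, 1 grey point per gene, with the median of each length class as a black line. The class medians fall from 1.1159 for genes up to 500 bases to -0.6087 for genes over 8000 bases.

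Cytosolic ribosomal protein genes were higher as a group in GB muscle. These proteins form the large and small subunits of the ribosome, which translates mRNA. All 46 tested genes of the large subunit passed the test as higher, with a median log2 fold change of 2.16. Of 32 tested genes of the small subunit, 31 were higher and none lower, with a median of 2.16. With the length offset the counts were 45 and 31. For Rps12, a small subunit protein, the young libraries gave 93, 105 and 92.2 CPM and the GB libraries 807, 833 and 753 CPM (log2 fold change 3.04, SE 0.08, adjusted p = 1.94e-10). Rps20, another small subunit protein, stood at 159.6, 161 and 146 CPM in young and 1422, 1399 and 1225 CPM in GB muscle (log2 fold change 3.12, SE 0.09, adjusted p = 1.94e-10). Every GB library lay above every young library for both genes. Rpl21, a large subunit protein, had 44.9, 52.5 and 41.6 CPM in the young libraries and 423, 442 and 415 CPM in the GB libraries (log2 fold change 3.20, SE 0.10, adjusted p = 2.71e-10). Rpl26, a large subunit protein, averaged 147 ± 9.21 CPM in young and 1118 ± 90.8 CPM in GB libraries as mean ± SD, n = 3 (log2 fold change 2.93, SE 0.09, adjusted p = 2.71e-10). Mean levels of Rplp0, a protein of the ribosomal stalk, were 723 ± 34.3 CPM (young) and 1756 ± 229.8 CPM (GB), with SD over 3 libraries (log2 fold change 1.28, SE 0.09, adjusted p = 1.94e-07). The muscle isoform Rpl3l and its common form Rpl3 differed less than most of this group. Rpl3l, the form enriched in muscle, averaged 453 ± 18.3 CPM in young and 777 ± 37.9 CPM in GB libraries as mean ± SD, n = 3 (log2 fold change 0.78, SE 0.07, adjusted p = 1.99e-06). Mean levels of Rpl3, the common form, were 70.7 ± 7.17 CPM (young) and 134 ± 19 CPM (GB), with SD over 3 libraries (log2 fold change 0.92, SE 0.11, adjusted p = 1.59e-05). Rps10 did not pass the test and was under 1.2 CPM in every library. Ribosomal protein genes have many processed pseudogenes, so counts may be split or lost between copies. The summed level of the 46 large subunit genes was 7015 to 8052 CPM in young, 7479 to 7708 in aged vehicle and 29842 to 34063 in GB libraries.

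Messenger RNAs of ribosomal proteins are known to begin with a run of pyrimidines at the cap, and their promoters are shown because these genes moved together. RefSeq promoters (build GRCm38.p6) were found for 58 of the 78 genes listed. Each line below runs from 120 bases before to 30 bases after the annotated start, 5′ to 3′ on the gene's strand. Rps12 lies on the minus strand at chr10:23787180-23787329, and Rpl31 on the plus strand at chr1:39367731-39367880. Capitals mark any of 5 hexamers (the first CTTTTC, the second CTTTCC, the next CCTTTC, another TTCTTC, the last TCTTTC), searched on the gene's strand only.
Rps12: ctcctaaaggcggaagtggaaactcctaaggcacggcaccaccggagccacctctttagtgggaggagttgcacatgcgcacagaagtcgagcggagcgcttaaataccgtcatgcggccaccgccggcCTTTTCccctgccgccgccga
Rpl31: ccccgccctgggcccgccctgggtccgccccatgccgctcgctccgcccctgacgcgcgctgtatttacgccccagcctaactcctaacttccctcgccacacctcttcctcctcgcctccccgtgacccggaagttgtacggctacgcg
The search was made in 2 forms after results were known. A run of at least 8 pyrimidines from 10 bases before to 12 after the start was found in 19 of 58 ribosomal protein promoters (32.8%) and in 8.21% of 27025 promoters of all genes. The hexamers were found in 27 of the 58 (46.6%) and in 21.9% of all promoters. Most of the hexamer window lies before the annotated start, so its matches do not show a run at the cap. A match describes the letters in the window, and Rpl31 holds none of the hexamers there.

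Transcripts encoded by the mitochondrial genome were higher in GB muscle. These genes code for core subunits of the respiratory chain and for the mitochondrial ribosome's RNAs. Of 15 tested, 14 were higher and none lower, with a median log2 fold change of 2.41. With the length offset 12 were higher. mt-Nd1, a complex I subunit, stood at 9404, 12650.1 and 11226 CPM in young and 69679.9, 66683 and 67406 CPM in GB muscle (log2 fold change 2.61, SE 0.10, adjusted p = 1.54e-09). mt-Co3, a complex IV subunit, had 73.4, 123 and 94.2 CPM in the young libraries and 1877, 2226 and 1978 CPM in the GB libraries (log2 fold change 4.39, SE 0.17, adjusted p = 4.39e-09). For mt-Rnr1, the small ribosomal RNA, the young libraries gave 412, 373 and 298 CPM and the GB libraries 10445, 9079 and 7289 CPM (log2 fold change 4.63, SE 0.16, adjusted p = 1.32e-09). The GB libraries were all above the young libraries for these 3 genes. Aged vehicle libraries had 687, 822 and 726 CPM for mt-Rnr1. Mean levels of mt-Nd4l, a complex I subunit, were 33 ± 6.28 CPM (young) and 68.2 ± 52.2 CPM (GB), with SD over 3 libraries (log2 fold change 1.05, SE 0.72, adjusted p = 0.269). Nuclear copies of mitochondrial sequences can share reads with these genes.

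Nuclear genes for the respiratory chain and the mitochondrial ribosome were mostly higher as well. Of 37 nuclear complex I genes, 32 were higher and 3 lower (median 1.34), and the offset fit gave 28 and 6. Of 45 nuclear genes of complexes II to V, 36 were higher and 5 lower (median 1.29), against 30 and 8 with the offset. Ndufc1, an accessory subunit of complex I, had 97.7, 108 and 96.4 CPM in the young libraries and 589, 582 and 528 CPM in the GB libraries (log2 fold change 2.49, SE 0.09, adjusted p = 9.62e-10). For Cox6c, a complex IV subunit, the young libraries gave 267, 275 and 243 CPM and the GB libraries 1017, 958 and 938 CPM (log2 fold change 1.89, SE 0.08, adjusted p = 1.70e-09). Uqcrc2, a core subunit of complex III, stood at 296, 332 and 324 CPM in young and 75.8, 59.1 and 70.5 CPM in GB muscle (log2 fold change -2.21, SE 0.10, adjusted p = 2.95e-09). Ndufc1 and Cox6c were higher in every GB library, and Uqcrc2 was lower in every one. Mean levels of Cox7a1, the muscle and heart form of a complex IV subunit, were 139 ± 15.7 CPM (young) and 426 ± 34.9 CPM (GB), with SD over 3 libraries (log2 fold change 1.62, SE 0.11, adjusted p = 1.14e-07). Atp5b, the catalytic beta subunit of ATP synthase, averaged 2469.5 ± 109 CPM in young and 2227 ± 217 CPM in GB libraries as mean ± SD, n = 3 (log2 fold change -0.15, SE 0.08, adjusted p = 0.138). Of 77 mitochondrial ribosomal protein genes, 61 were higher and 6 lower (median 0.98), and the offset fit gave 51 and 11. With library totals these became 41 and 16. Library totals gave 28 and 5 for nuclear complex I, and 28 and 10 for complexes II to V. Mean levels of Mrps21, a small subunit protein of the mitochondrial ribosome, were 60 ± 3.94 CPM (young) and 387 ± 36.8 CPM (GB), with SD over 3 libraries (log2 fold change 2.69, SE 0.09, adjusted p = 5.30e-10).

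**Figure D2:**
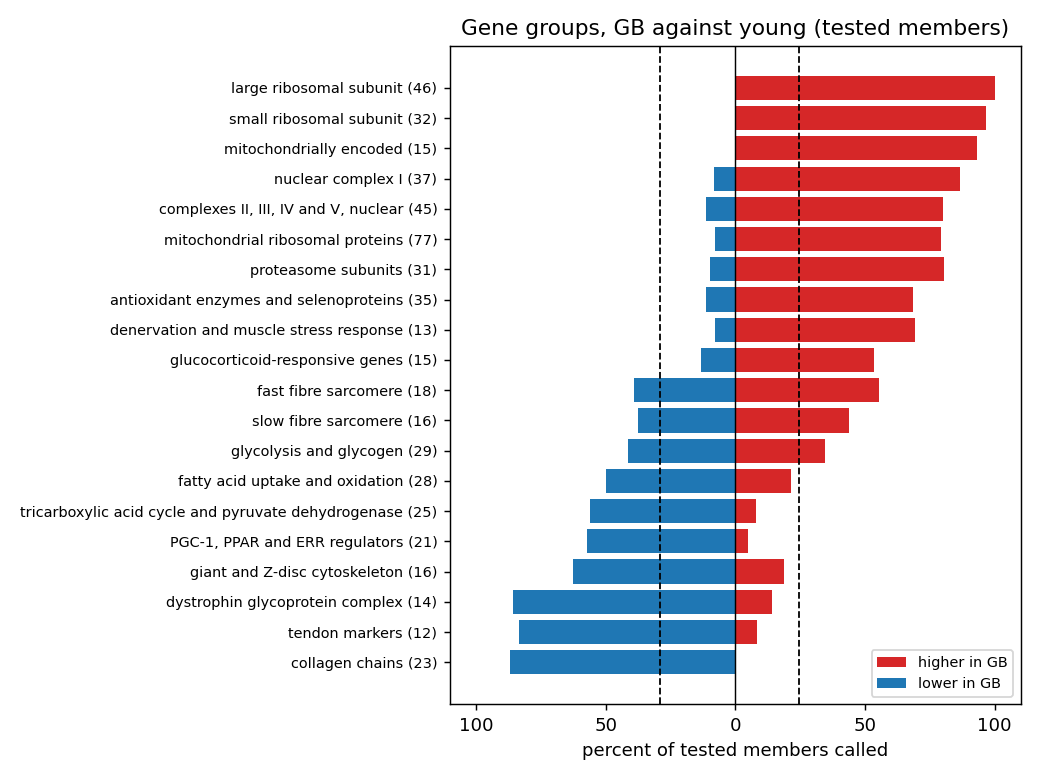
Number of tested genes called higher (right) and lower (left) in GB muscle for 20 gene groups, as a percentage of the tested members of each group. Dashed lines mark the shares over all genes tested, 24.7% higher and 29.0% lower.

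Enzymes that feed the respiratory chain went the other way. Of 25 genes of the tricarboxylic acid cycle and pyruvate dehydrogenase, 2 were higher and 14 lower (median -0.31). The counts were 2 and 13 with the length offset and 1 and 23 with library totals. The number higher was 4 without GB replicate 3 and 1 without any other single library. Pdha1, the catalytic subunit of pyruvate dehydrogenase, which makes acetyl-CoA from pyruvate, had 407, 407 and 423 CPM in the young libraries and 47.8, 45.7 and 46.8 CPM in the GB libraries (log2 fold change -3.14, SE 0.08, adjusted p = 1.75e-10). Mean levels of Pdpr, the regulatory subunit of pyruvate dehydrogenase phosphatase, were 139 ± 20.2 CPM (young) and 1.5 ± 0.405 CPM (GB), with SD over 3 libraries (log2 fold change -6.53, SE 0.19, adjusted p = 2.52e-10). Both were lower in every GB library than in any young library. Pdpr was among the 10 largest falls, a set picked for no overlap. Cs, citrate synthase, averaged 682 ± 36.1 CPM in young and 412 ± 21.5 CPM in GB libraries as mean ± SD, n = 3 (log2 fold change -0.73, SE 0.07, adjusted p = 2.93e-06). Of 28 genes of fatty acid uptake and oxidation, 6 were higher and 14 lower (median -0.24), and 2 and 22 with library totals. Acadvl, the very-long-chain acyl-CoA dehydrogenase, had 164, 163 and 148 CPM in the young libraries and 12.7, 14.9 and 14.7 CPM in the GB libraries (log2 fold change -3.49, SE 0.10, adjusted p = 1.94e-10). Acsl1, which activates long-chain fatty acids, averaged 329 ± 10.4 CPM in young and 78.1 ± 1.88 CPM in GB libraries as mean ± SD, n = 3 (log2 fold change -2.07, SE 0.09, adjusted p = 3.97e-09). Mean levels of Etfb, a subunit of the electron transfer flavoprotein, were 9.35 ± 1 CPM (young) and 54.7 ± 7.72 CPM (GB), with SD over 3 libraries (log2 fold change 2.55, SE 0.14, adjusted p = 1.56e-08). Aged vehicle muscle had 184, 206 and 188 CPM for Acadvl, all above the young values.

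Most called regulators of mitochondrial and lipid genes were lower. Among 21 PGC-1, PPAR and ERR genes, 1 was higher and 12 lower (median -0.47), and the offset fit gave 1 and 10. With library totals none was higher and 19 were lower. Ppara, a fatty acid-sensing nuclear receptor, had 18.1, 8.99 and 9.59 CPM in the young libraries and 0.381, 0.42 and 0.224 CPM in the GB libraries (log2 fold change -5.14, SE 0.37, adjusted p = 2.53e-07). Mean levels of Ppargc1b, a coactivator of mitochondrial genes, were 13.3 ± 3.54 CPM (young) and 1.22 ± 0.457 CPM (GB), with SD over 3 libraries (log2 fold change -3.44, SE 0.26, adjusted p = 2.52e-07). Esrrg, an estrogen-related receptor, averaged 33.7 ± 8.02 CPM in young and 7.6 ± 0.335 CPM in GB libraries as mean ± SD, n = 3 (log2 fold change -2.15, SE 0.17, adjusted p = 3.18e-07). GB libraries lay under all young libraries for these genes. Ppara was among the 10 largest falls, a set picked for no overlap. Ppargc1a, the best known coactivator of mitochondrial biogenesis, had 25.1, 24.7 and 28.6 CPM in the young libraries and 16.8, 28.4 and 26.8 CPM in the GB libraries (log2 fold change -0.12, SE 0.16, adjusted p = 0.553). Its groups overlapped, the 95% interval of its log2 fold change was -0.48 to 0.23, and its aged vehicle levels were 40.2, 45 and 41.4 CPM.

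Glycolysis and the contractile proteins were split. Of 29 glycolysis and glycogen genes, 10 were higher and 12 lower. The counts were 7 and 10 with the length offset and 3 and 20 with library totals. For Aldoa, the muscle form of aldolase, the young libraries gave 13229, 13496 and 12885 CPM and the GB libraries 37964, 43714 and 41037 CPM (log2 fold change 1.63, SE 0.08, adjusted p = 6.02e-09). Mean levels of Pgam2, the muscle form of phosphoglycerate mutase, were 1423 ± 101 CPM (young) and 3943 ± 351 CPM (GB), with SD over 3 libraries (log2 fold change 1.47, SE 0.09, adjusted p = 2.66e-08). Pgk1, phosphoglycerate kinase, averaged 843 ± 83.3 CPM in young and 389.8 ± 15.9 CPM in GB libraries as mean ± SD, n = 3 (log2 fold change -1.11, SE 0.09, adjusted p = 3.69e-07). Of 18 fast fibre sarcomere genes, 10 were higher and 7 lower (median 0.43), and 8 were higher and 7 lower with library totals. For Mylpf, a fast regulatory light chain, the young libraries gave 6691, 8113 and 7471 CPM and the GB libraries 18835, 23711 and 22663 CPM (log2 fold change 1.55, SE 0.10, adjusted p = 6.74e-08). Tnni2, the fast troponin I, averaged 5649 ± 324 CPM in young and 15747 ± 1384 CPM in GB libraries as mean ± SD, n = 3 (log2 fold change 1.48, SE 0.08, adjusted p = 2.09e-08). Light chain and troponin were thus higher in each GB library. Heavy chains of fast myosin were lower. Myh1, the heavy chain of type 2X fibres, had 2533, 3852 and 3307 CPM in the young libraries and 663, 564 and 559.5 CPM in the GB libraries (log2 fold change -2.44, SE 0.15, adjusted p = 1.13e-07). For Myh2, the heavy chain of type 2A fibres, the young libraries gave 2525, 3903 and 3241 CPM and the GB libraries 238, 225 and 179 CPM (log2 fold change -3.91, SE 0.31, adjusted p = 9.89e-06). Mean levels of Myh4, the heavy chain of type 2B fibres, were 48664 ± 3344 CPM (young) and 33888 ± 3304 CPM (GB), with SD over 3 libraries (log2 fold change -0.52, SE 0.12, adjusted p = 0.00218). The aged vehicle libraries lay on the other side of the young ones for Myh1, with 9347, 11370.0 and 12192 CPM. These 3 genes are near-identical neighbours, and reads may be split between them. With the length offset the Myh4 call was lost (adjusted p = 0.146).

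Slow fibre genes differed in direction between members. Of 16, 7 were higher and 6 lower. The counts were 3 and 6 with the length offset and 1 and 6 with library totals. The number called higher was 4 without young replicate 2, without young replicate 3 or without GB replicate 3. Myh7, the slow myosin heavy chain, had 553, 293 and 449 CPM in the young libraries and 32, 30.4 and 45.3 CPM in the GB libraries (log2 fold change -3.59, SE 0.38, adjusted p = 8.77e-05). For Myl2, the slow regulatory light chain, the young libraries gave 199, 244 and 204 CPM and the GB libraries 389.7, 475 and 499 CPM (log2 fold change 1.08, SE 0.36, adjusted p = 0.0362). Tnni1, the slow troponin I, averaged 72.4 ± 14.9 CPM in young and 115 ± 9.35 CPM in GB libraries as mean ± SD, n = 3 (log2 fold change 0.66, SE 0.13, adjusted p = 0.000748). Myh7 was lower in each GB library than in any young library, and Myl2 and Tnni1 were higher in each. The Myl2 call was lost with the length offset (adjusted p = 0.194), with library totals, and on leaving out any 1 of the 6 libraries (adjusted p = 0.0656 to 0.105). Aged vehicle muscle was far below both groups for these genes, with 1.71, 5.15 and 1.81 CPM for Myl2 and 2.11, 5.42 and 3.93 CPM for Myh7. Tnnc1, the slow and cardiac troponin C, had 122, 65.3 and 88.1 CPM in the young libraries and 108, 124 and 145 CPM in the GB libraries (log2 fold change 0.45, SE 0.26, adjusted p = 0.17). Its groups overlapped, and its aged vehicle levels were 1.67, 3.35 and 2.43 CPM. Without young replicate 1 it was called higher (adjusted p = 0.024). With library totals the Tnni1 call was lost (log2 fold change 0.10, adjusted p = 0.549). Atp2a2, the slow and cardiac calcium pump, averaged 489 ± 99.4 CPM in young and 195 ± 26.7 CPM in GB libraries as mean ± SD, n = 3 (log2 fold change -1.33, SE 0.14, adjusted p = 5.15e-06). Among 9 tested developmental and cardiac forms, 1 was higher and 3 lower, and 1 and 5 with library totals. Actc1, cardiac actin, stood at 885, 877 and 1019 CPM in young and 96.6, 105 and 102 CPM in GB muscle (log2 fold change -3.20, SE 0.11, adjusted p = 6.55e-10). All GB values were under all young values, and aged vehicle muscle had 74.4, 67.9 and 55.6 CPM.

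**Figure D3:**
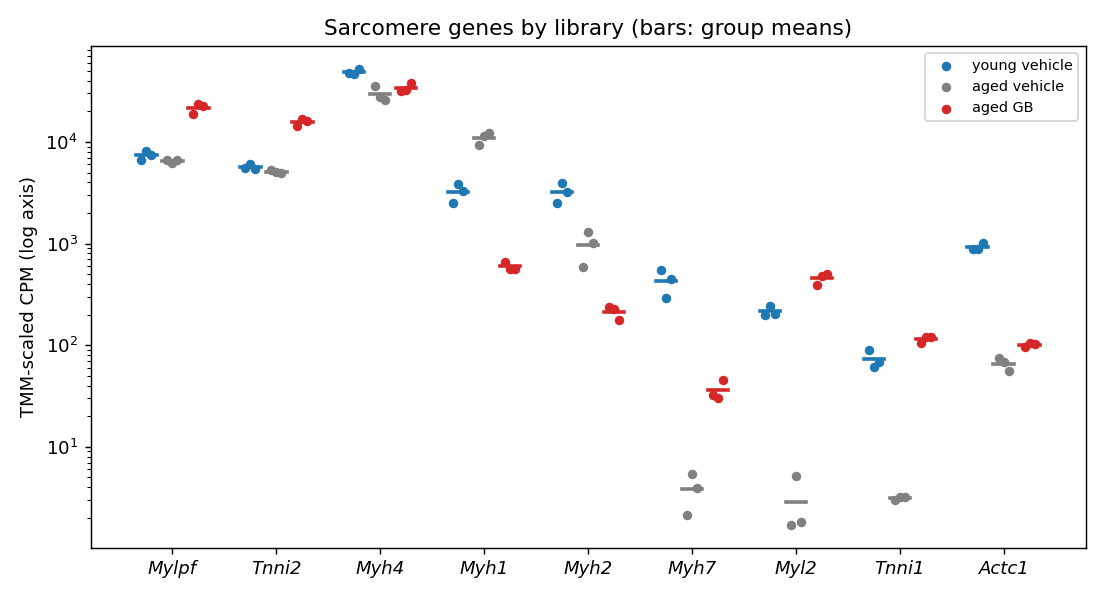
TMM-scaled CPM (log axis) of 9 sarcomere genes in each library, with young vehicle, aged vehicle and GB libraries as 3 colours and bars at group means. Myh7 sits between 30.4 and 45.3 CPM in the GB libraries and Myl2 between 389.7 and 499, on opposite sides of the young libraries.

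Large structural proteins were mostly lower. Their genes are long, with a median length of 13757.5 bases among the giant and Z-disc genes against 3853.5 bases over all genes tested. Of 16 giant and Z-disc genes, 3 were higher and 10 lower (median -0.96), and with the length offset 6 and 8. Neb, nebulin, the ruler of the thin filament, had 5845, 5245 and 6161 CPM in the young libraries and 2371, 2442 and 2469 CPM in the GB libraries (log2 fold change -1.24, SE 0.09, adjusted p = 2.52e-07). For Des, desmin, the intermediate filament of muscle, the young libraries gave 2588, 2798 and 2664 CPM and the GB libraries 8290.1, 7683 and 7004 CPM (log2 fold change 1.51, SE 0.08, adjusted p = 1.40e-08). Neb was lower and Des higher in every GB library. Ttn, titin, the giant spring of the sarcomere, averaged 12776 ± 1454 CPM in young and 6445 ± 121 CPM in GB libraries as mean ± SD, n = 3 (log2 fold change -0.99, SE 0.15, adjusted p = 0.00023). With the offset Ttn was called in the opposite direction (log2 fold change 0.29, adjusted p = 0.0413). Of 14 genes of the dystrophin glycoprotein complex, which ties the fibre to its matrix, 2 were higher and 12 lower (median -1.15). The offset fit gave 1 and 11. Dmd, dystrophin, had 150.4, 123 and 158 CPM in the young libraries and 48.1, 51.3 and 64.2 CPM in the GB libraries (log2 fold change -1.40, SE 0.13, adjusted p = 2.10e-06). Dag1, dystroglycan, averaged 348 ± 14.5 CPM in young and 107 ± 9.22 CPM in GB libraries as mean ± SD, n = 3 (log2 fold change -1.70, SE 0.09, adjusted p = 1.39e-08). Of 16 calcium release genes, 3 were higher and 8 lower, and 3 and 13 with library totals. Cacna1s, the voltage sensor that triggers contraction, stood at 946, 964 and 1002 CPM in young and 53.2, 72.2 and 81.7 CPM in GB muscle (log2 fold change -3.81, SE 0.14, adjusted p = 1.17e-09). Jsrp1, a junctional reticulum protein, averaged 340.1 ± 17.7 CPM in young and 1272 ± 73.1 CPM in GB libraries as mean ± SD, n = 3 (log2 fold change 1.90, SE 0.08, adjusted p = 1.69e-09). Mean levels of Jph2, a junctophilin, were 1157 ± 53.1 CPM (young) and 345 ± 25.5 CPM (GB), with SD over 3 libraries (log2 fold change -1.74, SE 0.10, adjusted p = 3.61e-08).

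Connective tissue genes were lower. None of 23 collagen chains was higher and 20 were lower (median -1.62), and 17 were lower with the length offset. Col1a1, the main fibrillar collagen chain, stood at 146, 457 and 505 CPM in young and 33.4, 16.9 and 16.2 CPM in GB muscle (log2 fold change -4.06, SE 0.60, adjusted p = 0.00115). Col3a1, another fibrillar collagen, had 196, 417 and 432 CPM in the young libraries and 68.2, 45.1 and 40 CPM in the GB libraries (log2 fold change -2.77, SE 0.36, adjusted p = 0.000326). Young replicate 1 had less of both than the other young libraries, and all GB values were lower still. For Col4a1, a basement membrane collagen, the young libraries gave 193, 248 and 249 CPM and the GB libraries 81.5, 75.8 and 65.9 CPM (log2 fold change -1.63, SE 0.11, adjusted p = 1.07e-07). Here young replicates were closer together. Of 24 matrix proteases, inhibitors and crosslinkers, 1 was higher and 16 lower (median -0.83). Mean levels of Mmp2, a gelatinase, were 44.2 ± 4.46 CPM (young) and 6.78 ± 0.527 CPM (GB), with SD over 3 libraries (log2 fold change -2.70, SE 0.11, adjusted p = 2.05e-09). Timp3, an inhibitor of matrix proteases, averaged 77.3 ± 17.3 CPM in young and 9.92 ± 1.21 CPM in GB libraries as mean ± SD, n = 3 (log2 fold change -2.96, SE 0.19, adjusted p = 2.13e-07). Of 12 tendon genes, 1 was higher and 10 lower (median -2.68). For Fmod, fibromodulin, a tendon proteoglycan, the young libraries gave 184, 350.2 and 349 CPM and the GB libraries 30.8, 22.4 and 16.7 CPM (log2 fold change -3.66, SE 0.34, adjusted p = 2.97e-05). Kera, keratocan, averaged 12.8 ± 5.21 CPM in young and 0.498 ± 0.0888 CPM in GB libraries as mean ± SD, n = 3 (log2 fold change -4.68, SE 0.36, adjusted p = 3.27e-07). The summed level of the tendon genes was 419.1 to 749.5 CPM in young, 288.8 to 499.9 in aged vehicle and 105.5 to 182.7 in GB libraries. Young replicates 2 and 3, which held more Col1a1, Col3a1 and Fmod than young replicate 1, were also those high in skin keratins. The part of tendon or skin carried with the muscle in these results was not tested. Of 6 skin genes tested, 3 were lower and none higher. The number lower was 10 of 12 without young replicate 1, 2 without any other single library, and 0 in limma-voom.

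**Figure D4:**
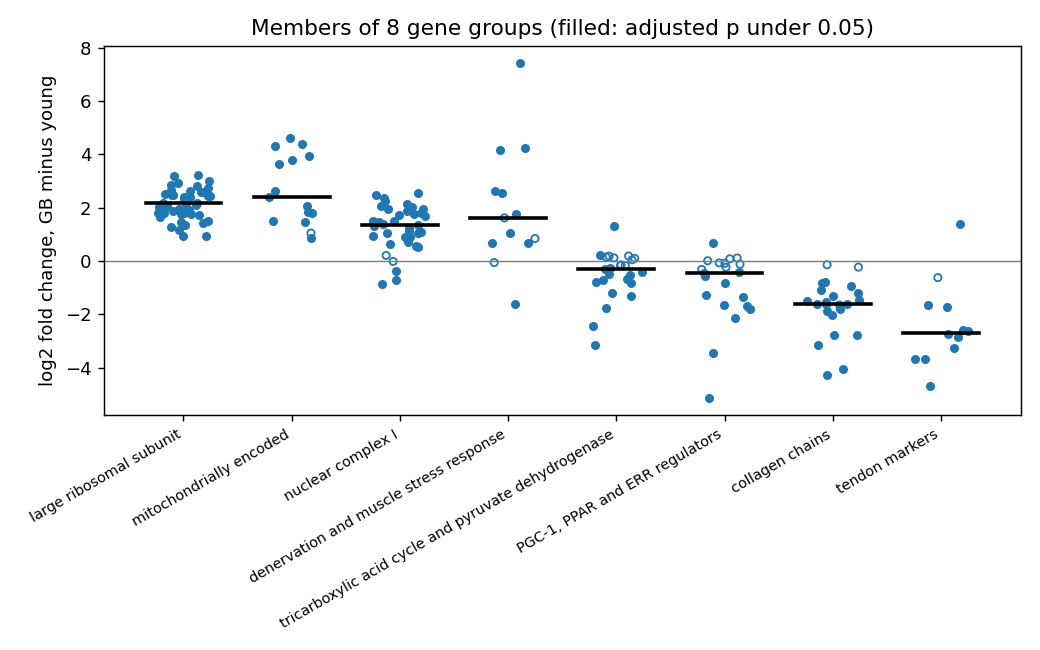
Log2 fold change (GB minus young) of every tested member of 8 gene groups, 1 point per gene, filled where the adjusted p was under 0.05, with the group median as a bar. All 46 large ribosomal subunit genes lie above 0 and all 23 collagen chains lie below 0.

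Called genes of denervation and stress were mostly higher. Fibres that lose nerve contact are known to raise Gadd45a, Ankrd1, Sln and the fetal receptor subunit Chrng. Of 13 genes, 9 were higher and 1 lower (median 1.62), and 8 and 1 with the length offset. With library totals 6 were higher and 1 lower. The number higher was 6 without GB replicate 1 and 7 without each young library in turn. Ankrd1, a stretch and injury response gene, had 4.08, 4.06 and 2.92 CPM in the young libraries and 23.7, 20.2 and 20.7 CPM in the GB libraries (log2 fold change 2.55, SE 0.24, adjusted p = 2.77e-06). For Gadd45a, a stress gene induced by denervation, the young libraries gave 17.8, 13.3 and 13.9 CPM and the GB libraries 56.4, 46.6 and 50.4 CPM (log2 fold change 1.77, SE 0.16, adjusted p = 1.22e-06). Sln, sarcolipin, a brake on the calcium pump, stood at 2.64, 3.54 and 4.25 CPM in young and 22.6, 18.9 and 23 CPM in GB muscle (log2 fold change 2.63, SE 0.37, adjusted p = 0.000181). For these genes each GB library exceeded each young library. Chrng, the fetal acetylcholine receptor subunit, averaged 0.0434 ± 0.0518 CPM in young and 1.03 ± 0.822 CPM in GB libraries as mean ± SD, n = 3 (log2 fold change 4.44, SE 1.03, adjusted p = 0.00331). Chrng was under 2.3 CPM in every library, and its call was lost in limma-voom (adjusted p = 0.0685). Mean levels of Runx1, a transcription factor induced by denervation, were 2.98 ± 0.611 CPM (young) and 5.35 ± 2.89 CPM (GB), with SD over 3 libraries (log2 fold change 0.84, SE 0.34, adjusted p = 0.0517). With the length offset Runx1 was called higher (adjusted p = 0.00416). Fgf21, a stress hormone, had 0 counts in the 3 young libraries and 39 in the 3 GB libraries, at least 26.7-fold higher against a limit of 3 counts over the group, which covers counting error only. Of 14 genes of the acetylcholine receptor and neuromuscular junction, 4 were higher and 4 lower, and 2 and 8 with library totals.

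Glucocorticoid-responsive genes were higher in part. Of 15, 8 were higher and 2 lower (median 1.48), and 7 and 4 with library totals. Tsc22d3, a classic glucocorticoid target, stood at 178, 90 and 93 CPM in young and 669, 687 and 693 CPM in GB muscle (log2 fold change 2.51, SE 0.26, adjusted p = 4.48e-05). Mt1, metallothionein 1, which binds zinc and copper, had 12.2, 8.45 and 8.36 CPM in the young libraries and 133, 199 and 221 CPM in the GB libraries (log2 fold change 4.25, SE 0.68, adjusted p = 0.00177). For Foxo1, a driver of atrophy genes, the young libraries gave 19.8, 16.5 and 16.9 CPM and the GB libraries 40.7, 57.2 and 61.4 CPM (log2 fold change 1.58, SE 0.26, adjusted p = 0.00066). All GB libraries were above all young libraries, and aged vehicle muscle had 123, 29.5 and 30.3 CPM for Mt1. Per1, a clock gene that also responds to glucocorticoids, stood at 118, 12.9 and 11.7 CPM in young and 76.9, 88.2 and 98.9 CPM in GB muscle (log2 fold change 0.89, SE 0.99, adjusted p = 0.49). Young replicate 1 was high for Per1 and lay above every GB library. Without young replicate 1 the log2 fold change of Per1 was 2.83 (adjusted p = 0.00618). Nr3c1, the glucocorticoid receptor, averaged 112 ± 23.7 CPM in young and 52.2 ± 1.65 CPM in GB libraries as mean ± SD, n = 3 (log2 fold change -1.11, SE 0.15, adjusted p = 5.65e-05).

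Metallothionein genes are known to be switched on by metals through metal response elements, so the Mt1 promoter is shown. It lies on the plus strand at chr8:94178969-94179118 (RefSeq, GRCm38.p6) and runs from 120 bases before to 30 bases after the annotated start. Capitals mark TGCACNC or TGCGCNC, searched on both strands.
Mt1: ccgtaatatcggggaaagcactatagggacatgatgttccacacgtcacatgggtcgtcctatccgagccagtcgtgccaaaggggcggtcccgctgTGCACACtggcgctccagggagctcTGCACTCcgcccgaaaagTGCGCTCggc
This window holds 3 matches, and 15.5% of 27025 promoters hold at least 1 in the same window. Only 1 of the 3 lies before the annotated start, and the others lie after it. The first search, over the 250 bases before the start, found 1 match in Mt1 and at least 1 in 21.3% of promoters. For Mt2, metallothionein 2, the first search found 3 matches and the later window 2. The window was changed after the first counts were seen.

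Proteasome genes were mostly higher, and other genes of protein breakdown and growth signalling were split. Of 31 proteasome subunits, 25 were higher and 3 lower (median 0.61), 19 and 6 with the length offset, and 11 and 9 with library totals. Mean levels of Psma7, a core subunit, were 66.3 ± 5.2 CPM (young) and 190.0 ± 5.99 CPM (GB), with SD over 3 libraries (log2 fold change 1.52, SE 0.08, adjusted p = 1.63e-08). Psmd1, a subunit of the regulatory cap, averaged 123 ± 9.79 CPM in young and 35.9 ± 3.43 CPM in GB libraries as mean ± SD, n = 3 (log2 fold change -1.78, SE 0.10, adjusted p = 1.44e-08). Of 16 atrophy ubiquitin ligases and partners, 3 were higher and 8 lower, and 1 and 11 with library totals. Trim63, the ligase MuRF1, had 184, 252 and 248 CPM in the young libraries and 393, 682 and 702 CPM in the GB libraries (log2 fold change 1.38, SE 0.44, adjusted p = 0.0327). For Fbxo32, the ligase atrogin-1, the young libraries gave 137, 649 and 643 CPM and the GB libraries 329.8, 462 and 568 CPM (log2 fold change -0.07, SE 0.55, adjusted p = 0.924). Fbxo32 was low in young replicate 1 alone, and its groups overlapped. Without that library its log2 fold change was -0.52 (adjusted p = 0.0249). The Trim63 call was lost with the length offset (adjusted p = 0.0659) and on leaving out any single library other than GB replicate 1 (adjusted p = 0.069 to 0.0977). Of 28 autophagy and lysosome genes, 12 were higher and 8 lower, but 6 were higher and 17 lower with library totals. Atg9a, a membrane protein needed to build autophagosomes, stood at 99, 98.6 and 111 CPM in young and 4.55, 3.81 and 5.18 CPM in GB muscle (log2 fold change -4.51, SE 0.13, adjusted p = 1.94e-10). Ctsd, the lysosomal protease cathepsin D, averaged 229 ± 3.75 CPM in young and 774 ± 32.5 CPM in GB libraries as mean ± SD, n = 3 (log2 fold change 1.76, SE 0.08, adjusted p = 2.95e-09). Of 25 insulin and IGF genes, 6 were higher and 11 lower, and 2 and 18 with library totals. Mean levels of Igfbp5, an IGF binding protein, were 688 ± 81.1 CPM (young) and 167 ± 19.8 CPM (GB), with SD over 3 libraries (log2 fold change -2.04, SE 0.11, adjusted p = 1.30e-08). Insr, the insulin receptor, averaged 93.9 ± 10.5 CPM in young and 41.7 ± 4.38 CPM in GB libraries as mean ± SD, n = 3 (log2 fold change -1.17, SE 0.10, adjusted p = 1.06e-06). Of 22 mTOR genes, 8 were higher and 8 lower, and of 22 myostatin, activin and BMP genes, 4 and 8. With library totals these became 6 and 12, and 3 and 14. Mean levels of Mstn, myostatin, a brake on muscle growth, were 58.3 ± 7.79 CPM (young) and 67 ± 18.2 CPM (GB), with SD over 3 libraries (log2 fold change 0.20, SE 0.20, adjusted p = 0.437). Acvr2b, its main receptor, averaged 11.7 ± 3.17 CPM in young and 1.34 ± 0.629 CPM in GB libraries as mean ± SD, n = 3 (log2 fold change -3.12, SE 0.33, adjusted p = 6.86e-06).

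Other stress groups were mixed. Of 35 antioxidant and selenoprotein genes, 24 were higher and 4 lower (median 0.60). With library totals the counts were 14 and 10, and with the length offset 18 and 5. Gpx4, a lipid peroxidase, stood at 184, 199 and 169.6 CPM in young and 702, 634 and 635 CPM in GB muscle (log2 fold change 1.84, SE 0.08, adjusted p = 4.23e-09). Selenop, the selenium transport protein, had 140.0, 174 and 153 CPM in the young libraries and 31.7, 32.3 and 29.8 CPM in the GB libraries (log2 fold change -2.31, SE 0.09, adjusted p = 1.69e-09). Gpx4 was higher and Selenop lower in every GB library. Of 25 heat shock genes, 9 were higher and 7 lower. The counts were 4 and 5 with the length offset and 4 and 11 with library totals. Mean levels of Hspa8, the constitutive cytosolic chaperone, were 881 ± 20 CPM (young) and 1829 ± 45.6 CPM (GB), with SD over 3 libraries (log2 fold change 1.05, SE 0.07, adjusted p = 4.63e-08). Hspa9, its mitochondrial relative, averaged 416 ± 5.03 CPM in young and 167 ± 10.1 CPM in GB libraries as mean ± SD, n = 3 (log2 fold change -1.31, SE 0.07, adjusted p = 2.05e-08). Of 28 genes of the integrated stress and ER stress responses, 9 were higher and 6 lower. These were 5 and 6 with the offset and 4 and 12 with library totals. Mean levels of Cebpb, a stress-induced transcription factor, were 47.2 ± 12.4 CPM (young) and 202 ± 11.6 CPM (GB), with SD over 3 libraries (log2 fold change 2.10, SE 0.18, adjusted p = 1.65e-06). Of 18 cell cycle inhibitors and p53 targets, 6 were higher and 3 lower, and 6 and 6 with library totals. For Cdkn1a, p21, a cell cycle inhibitor, the young libraries gave 22.1, 26.2 and 21.8 CPM and the GB libraries 53.6, 65.9 and 49.9 CPM (log2 fold change 1.28, SE 0.31, adjusted p = 0.00843). Aged vehicle muscle had 121, 50.8 and 56.1 CPM for Cdkn1a. Cdkn2a, a marker of senescent cells, was not tested, with 4, 2 and 2 counts in young and 4, 24 and 1 counts in GB libraries.

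Hoxd8 and Six2, transcription factors that pattern the embryo, were not called between GB and young muscle, while every aged vehicle library lay below every young and GB library for both genes. They and the next 2 genes were picked with earlier results of these data known. Hoxd8, a HoxD cluster gene, stood at 49.4, 43.1 and 48.3 CPM in young and 46.9, 50.8 and 45.5 CPM in GB muscle (log2 fold change 0.02, SE 0.11, adjusted p = 0.866). The groups overlapped, the 95% interval was -0.21 to 0.26, and aged vehicle libraries had 4.1, 3.71 and 4.8 CPM. Six2, a homeobox gene, had 14.8, 14 and 14.5 CPM in the young libraries and 13.4, 13.5 and 10.6 CPM in the GB libraries (log2 fold change -0.21, SE 0.15, adjusted p = 0.276). Its aged vehicle levels were 1.3, 1.66 and 1.23 CPM. Six2 was called lower with the length offset (log2 fold change -0.62, adjusted p = 0.00413) and with library totals (log2 fold change -0.77, adjusted p = 0.00142). Mean levels of Hoxd9, a neighbour in the cluster, were 22.6 ± 1.59 CPM (young) and 32.6 ± 5.11 CPM (GB), with SD over 3 libraries (log2 fold change 0.53, SE 0.13, adjusted p = 0.00339). Hoxd9 was called higher in GB than in young muscle, but not with the length offset (log2 fold change 0.13, adjusted p = 0.423) nor with library totals (log2 fold change -0.03, adjusted p = 0.88). Tbx1, a T-box transcription factor, averaged 9.27 ± 4.64 CPM in young and 17.6 ± 2.46 CPM in GB libraries as mean ± SD, n = 3 (log2 fold change 0.93, SE 0.36, adjusted p = 0.0601). Aged vehicle libraries had 85.6, 92.4 and 95.1 CPM for Tbx1. Without young replicate 1 the log2 fold change of Tbx1 was 0.55 (adjusted p = 0.00322). Of 25 limb patterning genes tested, 7 were higher and 6 lower, with 12 not called. The counts were 1 and 13 with library totals and 2 and 8 with the length offset. Without young replicate 2 or without young replicate 3, 2 were lower. With library totals the log2 fold change of Hoxd8 was -0.54 (adjusted p = 0.00124).

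**Figure D5:**
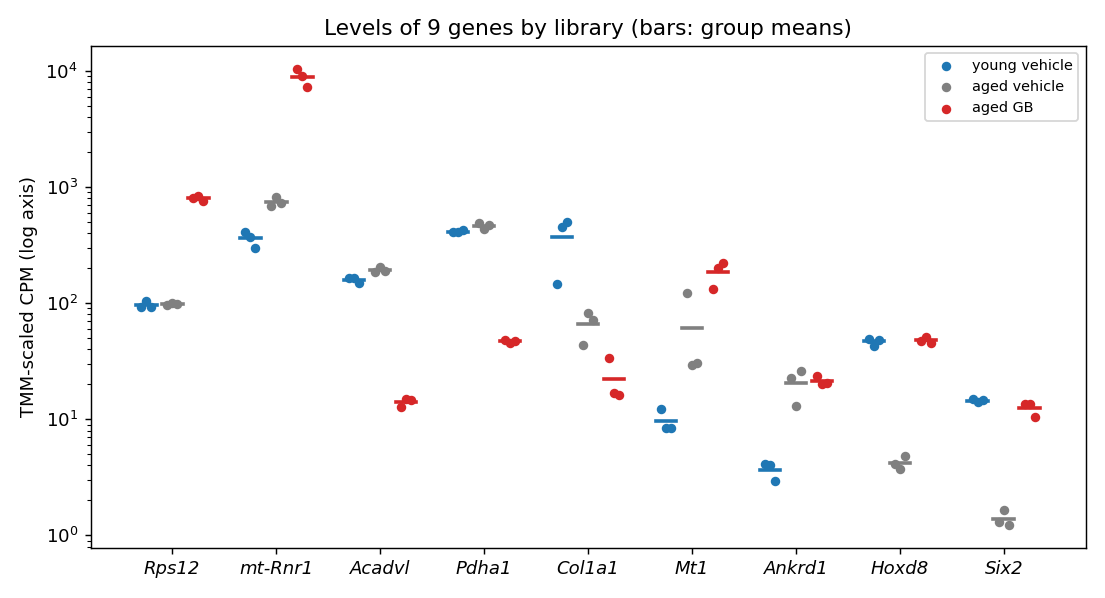
TMM-scaled CPM (log axis) of 9 genes in each library, coloured by group, with bars at group means. Hoxd8 and Six2 have similar values in young and GB libraries and low values in aged vehicle libraries. Rps12 is similar in young and aged vehicle libraries and apart in GB libraries. Acadvl is somewhat higher in aged vehicle than in young libraries and far lower in GB libraries.

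Markers of other cell types did not all move one way. Of 20 endothelial genes, 9 were higher and 4 lower. The counts were 10 and 1 with the length offset and 5 and 9 with library totals, and 2 were lower without young replicate 1 or GB replicate 2. Mean levels of Ly6c1, an endothelial surface protein, were 49.9 ± 2.23 CPM (young) and 225 ± 28.1 CPM (GB), with SD over 3 libraries (log2 fold change 2.18, SE 0.13, adjusted p = 2.92e-08). Kdr, a receptor for vascular growth factor, averaged 71.2 ± 10.2 CPM in young and 17.5 ± 4.34 CPM in GB libraries as mean ± SD, n = 3 (log2 fold change -2.02, SE 0.20, adjusted p = 6.98e-06). Mean levels of Pecam1, a junction protein of vessel walls, were 77 ± 3.47 CPM (young) and 71.2 ± 9.39 CPM (GB), with SD over 3 libraries (log2 fold change -0.11, SE 0.09, adjusted p = 0.338). Of 13 smooth muscle and pericyte genes, 6 were higher and 4 lower, and 4 and 7 with library totals. Acta2, smooth muscle actin, had 27.6, 34.8 and 34.1 CPM in the young libraries and 87.1, 80.6 and 59.4 CPM in the GB libraries (log2 fold change 1.24, SE 0.15, adjusted p = 2.96e-05). Aged vehicle libraries had 100.1, 112 and 135 CPM for Acta2. Of 22 macrophage genes, 4 were higher and 7 lower. The counts were 0 and 10 with the length offset and 0 and 14 with library totals, and 2 were higher without young replicate 1, young replicate 3 or GB replicate 1. Mean levels of Adgre1, the F4/80 antigen, were 5.38 ± 0.272 CPM (young) and 1.71 ± 0.167 CPM (GB), with SD over 3 libraries (log2 fold change -1.66, SE 0.20, adjusted p = 2.01e-05). C1qa, a complement chain, averaged 21 ± 1 CPM in young and 30.7 ± 4.91 CPM in GB libraries as mean ± SD, n = 3 (log2 fold change 0.55, SE 0.12, adjusted p = 0.00189). The C1qa call was lost with library totals and with the length offset. Of 17 fat and lipid droplet genes, 6 were higher and 4 lower, and 2 and 8 with library totals. Mean levels of Fasn, fatty acid synthase, were 171 ± 56.7 CPM (young) and 31 ± 8.2 CPM (GB), with SD over 3 libraries (log2 fold change -2.46, SE 0.32, adjusted p = 0.000223). Of 17 lymphocyte and neutrophil genes tested, 1 was higher and none lower, and 4 were higher without young replicate 1. For Igkc, an antibody light chain, the young libraries gave 72.3, 0.538 and 0.345 CPM and the GB libraries 17.4, 27 and 21.8 CPM (log2 fold change -0.15, SE 1.65, adjusted p = 0.95). Young replicate 1 held nearly all of the young signal, and without it the log2 fold change was 5.64 (adjusted p = 6.55e-08). Of 14 Schwann cell genes, 4 were higher and 1 lower, with 2 higher without young replicate 3 or GB replicate 2, and 1 higher and 5 lower with library totals. Of 16 fibro-adipogenic genes, 3 were higher and 4 lower, and 1 and 7 with library totals. Of 8 red blood cell genes, 2 were higher and 2 lower. Without GB replicate 1 these were 1 and 1, and with library totals 1 and 5. Of 26 interferon genes, 11 were higher and 2 lower, but 3 were higher and 7 lower with library totals. The number higher was 7 without young replicate 1 or GB replicate 1, and none was lower without young replicate 3 or GB replicate 1.

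Clock genes depended on young replicate 1. Of 19, 2 were higher and 6 lower, and without young replicate 1 the number higher was 10. It was 1 without young replicate 3 or any single GB library. Dbp, a clock output gene, stood at 129, 11.7 and 13 CPM in young and 52, 36.1 and 31.9 CPM in GB muscle (log2 fold change -0.36, SE 0.94, adjusted p = 0.774). Young replicate 1 lay above every GB library, and young replicates 2 and 3 lay below every one. Without it the log2 fold change of Dbp was 1.68 (adjusted p = 2.30e-05). Nr1d1, a repressor arm of the clock, had 157, 165 and 161 CPM in the young libraries and 41.7, 26.1 and 28.7 CPM in the GB libraries (log2 fold change -2.32, SE 0.15, adjusted p = 7.47e-08). Nr1d1 was lower in each GB library. The labels do not give times of tissue collection.

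Of 14 genes of the platelet activating factor pathway, whose receptor GB blocks, 3 were higher and 3 lower. Over all genes tested, 24.7% were higher and 29.0% lower. For Ptafr, the receptor itself, the young libraries gave 3.24, 3.73 and 4.35 CPM and the GB libraries 1.34, 1.89 and 0.704 CPM (log2 fold change -1.52, SE 0.33, adjusted p = 0.00181). The GB libraries were under the young ones, at low levels. Pla2g7, the plasma enzyme that degrades platelet activating factor, stood at 45.9, 35.1 and 38.6 CPM in young and 68.1, 96.6 and 114 CPM in GB muscle (log2 fold change 1.22, SE 0.17, adjusted p = 6.31e-05). Mean levels of Pafah1b1, an intracellular hydrolase subunit, were 154 ± 9.95 CPM (young) and 56.8 ± 2.09 CPM (GB), with SD over 3 libraries (log2 fold change -1.44, SE 0.09, adjusted p = 6.26e-08). The number higher was 1 without young replicate 2, without young replicate 3 or without GB replicate 1, and with library totals 1 was higher and 7 lower.

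Some of the largest single changes are given here. By rule, the 10 largest rises and falls were taken among called genes whose higher group averaged 5 CPM or more and whose groups did not overlap. Their size and separation follow from that choice. For Galr2, a galanin receptor, the young libraries gave 6.25, 6.33 and 7.18 CPM and the GB libraries 0, 0 and 0.064 CPM (log2 fold change -8.15, SE 0.68, adjusted p = 6.66e-07). Pm20d2, a dipeptidase, stood at 17.9, 15.8 and 19.4 CPM in young and 0.509, 0.36 and 0 CPM in GB muscle (log2 fold change -5.92, SE 0.43, adjusted p = 8.49e-07). Zbed6, a repressor of Igf2 in muscle, averaged 35.7 ± 12 CPM in young and 0.835 ± 0.386 CPM in GB libraries as mean ± SD, n = 3 (log2 fold change -5.40, SE 0.35, adjusted p = 5.26e-07). Mean levels of Aldh1l2, a mitochondrial folate enzyme, were 7.54 ± 0.551 CPM (young) and 0.1 ± 0.173 CPM (GB), with SD over 3 libraries (log2 fold change -6.16, SE 0.64, adjusted p = 7.80e-06). Galr2, Pm20d2, Zbed6 and Aldh1l2 were close to 0 in GB libraries. Krt18, a simple epithelial keratin, stood at 0.295, 0.243 and 0.0576 CPM in young and 22, 9 and 8.29 CPM in GB muscle (log2 fold change 6.04, SE 0.69, adjusted p = 6.58e-05). Mean levels of Arrdc2, an arrestin domain protein, were 22.2 ± 23.3 CPM (young) and 326 ± 57 CPM (GB), with SD over 3 libraries (log2 fold change 3.87, SE 0.76, adjusted p = 0.00493). Each was higher in every GB library. Of 17534 tested genes, 329 had 0 counts in all 3 GB libraries and 5 had 0 counts in all 3 young libraries. A gene at 0 in either group was tested only because other libraries carried it past the filter, so both counts depend on that filter. GB libraries also had smaller total counts, and 3 counts over the group equal 0.0312 CPM in GB and 0.0154 CPM in young libraries. Of the 329, 12 averaged at least 1 CPM in young muscle. Among these, Gm57213 had 7.11, 5.48 and 7.23 CPM in the young libraries, and Cr2 had 9.90, 0.191 and 0.0288 CPM.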

How the data were processed

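Gene expression was measured by RNA sequencing of mouse gastrocnemius muscle. The authors deposited raw whole-number counts and a length for each gene, over 9 libraries. Per the submitters' processing notes, HISAT2, SAMtools, FastQC and DESeq2 were used, with no versions stated. Both GRCm39 and mm10 are named as builds. How reads were counted, on which annotation and whether by strand is not given in the sources used here, so overlapping genes cannot be told apart. Groups came from sample titles.

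Counts were tested as deposited with edgeR 4.0.16 (R 4.3.3), using filterByExpr (minimum count 10, minimum total 15), TMM factors and 1 quasi-likelihood fit with robust=TRUE to all 9 libraries. Two-sided p-values were adjusted with Benjamini-Hochberg across all 17534 genes tested. Levels are TMM-scaled CPM (counts scaled by library size). The margin test was glmTreat at 2-fold. The standard error (SE) is the log2 fold change divided by the square root of F. The length offset was a lowess curve (span 0.3) on log length, fitted in each library. The fitted value was a gene's log CPM minus its mean over all 9 libraries, and the curves were then centred per gene. The script was tested on simulated counts in which few genes changed. That simulation does not cover the choice of scaling in data with as many calls as here.

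The 56 gene lists, the genes named and the motifs were chosen with earlier results of these data known. The naming rule took the 10 largest rises and 10 largest falls (at least 5 CPM in the higher group, no overlap, predicted and small RNA genes left out), up to 4 called and 2 uncalled genes per list, and a list of muscle genes. Alternatives were library totals, upper-quartile and DESeq2 size factors, the length offset, no filter, at least 2 CPM in 3 libraries, DESeq2 1.42.0, limma-voom (limma 3.58.1), robust=FALSE, the 6 libraries alone, a replicate block, an adjusted p under 0.01, a 1.5-fold margin, and each library left out. Counts of list members without each library or with other scaling were added after seeing the data.

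A few named genes are not reported here.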

Additional observations from a re-analysis of the deposited data

How the results depend on the processing

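With library totals in place of TMM factors, 2117 genes were called higher and 8530 lower, against 4323 and 5083, because every gene shifts with the scaling. With a 1.5-fold margin in place of 2-fold, 5374 genes passed, against 2795. The numbers of genes called, higher, lower and past the 2-fold margin were within 1.5 times the main counts under every other alternative run. Leaving out each of the 6 libraries in turn gave 8117 to 9436 genes called, 3601 to 4263 higher, 4516 to 5173 lower and 2200 to 2823 past the margin. Deviations of same-numbered young and GB libraries correlated at 0.0205, -0.0075 and 0.0566. The best-correlated GB replicate was 1, 1 and 3 for young replicates 1, 2 and 3. So few values cannot decide whether replicate numbers pair the libraries. With a replicate block, 9025 genes were called, 4113 higher and 4912 lower, and 2574 passed the margin.

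Of the 106 genes whose values are given from the test, 92 were called. Of these, 90 kept direction and call with each library left out, and 84 under every alternative. Among genes called in the main test or under the alternative, directions changed with library totals for C1qa (-0.0047), Hoxd8 (-0.54) and Hoxd9 (-0.027), and with the length offset for C1qa (-0.24) and Ttn (0.29). Without young replicate 1 they changed for Dbp and Igkc. Leaving out each library gave -0.84 to 1.68 for Dbp and -0.74 to 5.64 for Igkc. Values are log2 fold changes. Fbxo32, Hoxd8, Mstn, Pecam1, Ppargc1a, Tnnc1 and mt-Nd4l also changed sign under at least 1 alternative without a call in either fit, as did Dbp and Igkc in limma-voom and with the replicate block. The cause of these changes was not tested. Depth limits genes near 0 counts, such as Chrng and Galr2.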

Other observations

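Groups not described above are given here by counts, beside 24.7% higher and 29.0% lower over all genes tested. Of 34 translation initiation and elongation genes, 19 were higher in GB muscle and 7 lower, and 10 and 17 with library totals. Of 24 immediate early genes, which respond within minutes to a stimulus, 9 were higher and 1 lower, and 3 and 3 with library totals. Of 15 imprinted growth genes, 3 were higher and 8 lower, and 3 and 5 with the length offset. Of 21 antigen presentation genes, 5 were higher and 1 lower, with 8 higher without young replicate 1 and 3 higher without young replicate 2, young replicate 3 or GB replicate 1. Of 17 complement genes, 4 were higher and 1 lower, and 0 and 6 with library totals.

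Nuclear RNA groups had calls in both directions, as did all genes tested (24.7% higher and 29.0% lower). Of 24 splicing genes and nuclear long RNAs, 8 were higher and 5 lower, 14 and 3 with the length offset, and 3 and 15 with library totals. Of 20 ribosome biogenesis genes, 8 were higher and 4 lower, with 2 lower without young replicate 1. With library totals 4 were higher and 9 lower, and with the length offset 10 and 1. Of 9 replication-dependent histone genes tested, 3 were higher and 2 lower. Of 18 satellite cell and myogenic genes, 5 were higher and 8 lower, with 3 higher without young replicate 2 or GB replicate 2, and 2 higher and 11 lower with library totals. Of 13 creatine and adenylate genes, 3 were higher and 6 lower, and of 11 polyamine genes 5 and 3. Removing 1 library changed the creatine and polyamine counts by more than 1.5 times. The number of creatine genes lower was 3 without young replicate 2 or GB replicate 3. The number of polyamine genes higher was 3 without young replicate 2 or GB replicate 1, and 2 without young replicate 3.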
